A study of Mus musculus with 8 samples.

Results

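The 37 genes described here encode the adaptors, kinases, ubiquitin ligases, inhibitors and transcription factor subunits of NF-kB signalling, and they were taken by name from a list of the pathway. All 37 were found among the 21951 protein-coding genes of the annotation. Bone marrow-derived macrophages (BMDMs), which are macrophages grown from marrow cells, were profiled for N6-methyladenosine (m6A) by MeRIP-Seq. This assay enriches methylated RNA fragments with an m6A antibody, and stretches with more reads in the immunoprecipitate (IP) than in the input RNA are listed as peaks. The mice were C57BL/6, 8 weeks old, and carried floxed Mettl3 alleles in both groups. The 2 WT mice (labelled wild type) were Mettl3 fl/fl Lyz2 +/+, and the 2 KO mice (labelled Mettl3-/-) were Mettl3 fl/fl Lyz2 cre/+, in which Cre is made from the Lyz2 locus of myeloid cells, so deletion is limited to cells that express Lyz2 and need not be complete. Cells were cultured for 7 days with M-CSF at 40 ng/mL and were not stimulated. The 8 libraries, an m6A IP and an input for each mouse, were reduced by the authors to 4 peak lists, which are WT-1 and WT-2 for the WT mice and KO-1 with KO-2 for the others.

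NF-kB is a family of dimeric transcription factors that inhibitors of the IkB family hold in the cytoplasm. In macrophages, Toll-like receptors signal through the adaptors MyD88 and TRIF to IRAK kinases and TRAF ubiquitin ligases, TNF receptors signal through RIPK1 and TRAF proteins, and both routes meet at the IKK complex, which marks the inhibitors for degradation. The deubiquitinases A20 (Tnfaip3) and CYLD remove the ubiquitin chains on which these complexes are built. METTL3 is the catalytic subunit of the main writer of m6A in messenger RNA, which acts mostly within a sequence context that contains GGAC and, in most tissues, close to stop codons and in long internal exons.

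The lists hold positions, strands and scores of peaks without read counts, and library depth is unknown. They held 6159 and 6263 peaks in WT and 6378 and 6684 in KO, of which between 97.0% and 97.3% were assigned to a protein-coding gene. Where the values of a genotype are given as a pair, replicate 1 comes first, and of 4 values the WT pair comes first. A peak is described as listed or not listed. Scores are printed as they stand in the lists, and a peak is ranked only within its own list. The rank is a percentile (the share of the list's peaks with a score at or below it). Many peaks share a score of 3100, and some scores in every list lie above it. Of the WT peaks 10.3% and 13.5% were at 3100 or more, and of the KO peaks 16.2% and 19.5%. Within a list, peaks at 3100 share 1 high percentile and are not ranked among themselves. A gene with no listed peak may be unmethylated, weakly expressed or below the detection of that library, and these cannot be told apart from the lists. No list held a peak on Mettl3, so the genotypes could not be checked on the targeted gene. Of 10 macrophage marker genes, 3 had a listed peak in any list: Mertk had 1 in every list, Cd14 had 1 in WT-2, and Fcgr1 had 1 in WT-1 and 2 in WT-2 but 0 in KO-1 and KO-2. The other 7, including Adgre1, Csf1r, Cd68 and Lyz2, had none. Markers of T cells, B cells and fibroblasts had a listed peak for 2 of 5, 1 of 5 and 2 of 4 genes, and those of neutrophils and mast cells for none of 5 and none of 4. Of these, Cd4 had 1 peak in either WT list and 0 in both KO lists. Like Fcgr1 and Cd4, 3.84% of all genes with any peak were listed in both WT lists and neither KO list. The T cell markers together had 2, 1, 0 and 0 peaks, those of B cells 1, 0, 1 and 0, and those of fibroblasts 1, 1, 2 and 0. Summed over the macrophage markers there were 2 peaks in WT-1, 4 in WT-2 and 1 in either KO list, and the lists cannot show the identity of the cells.

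The WT lists shared fewer of the 37 genes with each other than the KO lists did. Of 27 genes with a peak in WT-1 or WT-2, 16 had one in both (59.3%), against 18 of 23 for KO-1 and KO-2 (78.3%). Pairs of lists from different genotypes lay at 77.3% (WT-1 and KO-1), 73.9% (WT-1 and KO-2), 63.0% (WT-2 and KO-1) and 60.7% (WT-2 and KO-2), so WT-2 stood apart on these genes. Over all genes the corresponding share was 49.4% for the WT pair, 59.5% for the KO pair and between 50.4% and 53.0% for the mixed pairs.

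A listed peak was found on most of the NF-kB signalling genes. At least 1 list held a peak on 29 of the 37 (78.4%), where 32.1% of all protein-coding genes had a peak in any list. WT-1 held peaks on 19 of them (51.4%, Wilson 95% interval 35.9 to 66.6), WT-2 on 24 (64.9%, 48.8 to 78.2), KO-1 on 20 (54.1%, 38.4 to 69.0) and KO-2 on 21 (56.8%, 40.9 to 71.3). Among all genes the share was 19.2% and 19.9% in WT and 19.3% and 20.4% in KO. The intervals cover counting error only, and those of the 4 lists overlap one another. The 37 genes have in common a role in one pathway studied in macrophages, and whether their expression accounts for the higher share was not tested.

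The number of members with a peak did not separate the genotypes. It was 21.5 ± 3.54 in WT and 20.5 ± 0.707 in KO (SD, n = 2 each), a difference of -1 that is smaller than the spread between the WT lists. Of the 110 peaks on these genes, WT-1 held 27, WT-2 held 30, KO-1 held 26 and KO-2 held 27, or 28.5 ± 2.12 (SD, n = 2) per WT list and 26.5 ± 0.707 (SD, n = 2) per KO list. With 2 mice against 2, a two-sided exact permutation test cannot give a p below 0.33, so a p from that test says nothing on whether the genotypes differ.

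**Figure D1:**
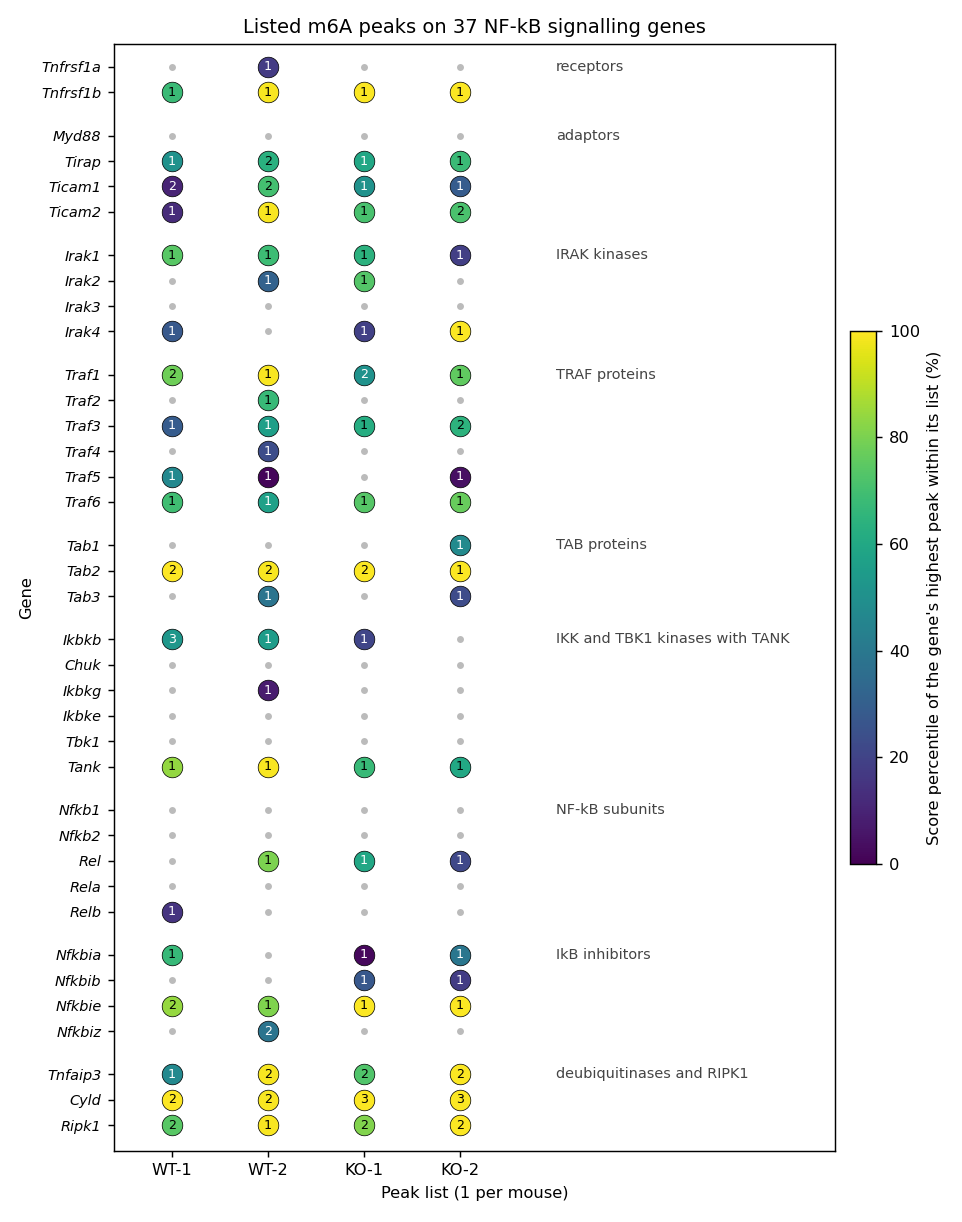
Listed peaks on each of the 37 genes (rows, by role) in each list (columns). The number in a circle is the number of peaks, the colour is the score percentile of the gene's highest peak within its list, and a grey dot marks no listed peak. The 14 genes with 4 circles, among them Cyld and Tab2, had a peak in every list, and 8 genes have none.

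A peak was listed in all 4 lists on 14 of the 29 members with any peak, Tirap, Ticam1, Ticam2, Irak1, Traf1, Traf3, Traf6, Tab2, Nfkbie, Tnfaip3, Cyld, Tank, Tnfrsf1b and Ripk1, where 30.4% of the 7055 genes with any peak were listed in every list. The 14 make 48.3% of these 29, and 37.8% of all 37, where 9.78% of all protein-coding genes had a peak in every list. A further 5 genes had a peak in 3 lists, 3 in 2 lists and 7 in a single list, and of those 7 the single list was WT-2 for 5, Traf2, Traf4, Ikbkg, Nfkbiz and Tnfrsf1a. Without WT-2, Relb would be the only member with a peak in WT and none in KO (4.17% of members then with a peak, all genes 13.5%). Rel would join Nfkbib in being listed in KO-1 as well as KO-2 but not in WT-1 (8.33%, all genes 10.9%). Irak2, Tab1 and Tab3 would each have a peak in a single KO list and none in WT-1.

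Among the deubiquitinases and RIPK1, all 3 genes had a peak in every list. CYLD, which removes linear and lysine-63-linked ubiquitin chains, had 2 and 2 peaks in WT and 3 and 3 in KO. Both KO lists thus held more peaks on Cyld than both WT lists (p = 0.33 by a two-sided exact permutation test, the smallest possible), and the additional peaks of KO-1 and KO-2 lay at different places, ranked at percentiles 5.46 and 25.4. The difference of 1 peak was 0.5 when only exons of coding transcripts were used and 0 in the upper 50% of each list by score. The recurrent signal of Cyld sits at the start of its coding sequence, in the neighbouring exons 2 and 3 on chromosome 8 (GRCm38, plus strand), and not near the stop codon. In exon 3 the listed peak filled the exon exactly, with the same 303 bases and the same score of 3100 in all 4 lists. The peak in exon 2 covered 500 and 519 bases in WT and 658 and 651 in KO, with scores of 3100, 2556, 3100 and 3100. Because the exon 3 peak ranks among the highest over the 4 lists together, 300 bases of it are shown, 5′ to 3′, with every GGAC in capitals. They lie at chr8:88707091-88707390.
Cyld exon 3: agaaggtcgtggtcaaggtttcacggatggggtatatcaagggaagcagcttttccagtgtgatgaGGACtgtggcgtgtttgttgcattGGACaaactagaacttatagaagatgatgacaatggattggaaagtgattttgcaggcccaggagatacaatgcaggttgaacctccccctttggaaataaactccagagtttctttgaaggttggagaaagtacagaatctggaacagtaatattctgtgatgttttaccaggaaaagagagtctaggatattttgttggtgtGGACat

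A20, encoded by Tnfaip3, both removes and builds ubiquitin chains and is a classical feedback inhibitor of NF-kB. Its gene carried 1 and 2 peaks in WT and 2 and 2 in KO. The region present in all 4 lists covered the stop codon and most of the 3′ UTR, in the last of its 9 exons, with top scores of 464.7 and 3100 in WT and 1557 and 3100 in KO. In percentiles these were 47.2, 99.1, 72.5 and 99.3, and the genotypes overlapped. The scores of WT-2 and KO-2 are tied with many others at 3100, so the distances of their ranks from those of WT-1 and KO-1 cannot be read. RIPK1, the kinase that relays TNF receptor signals, had 2 and 1 peaks in WT and 2 and 2 in KO. Its shared region began in the coding part of the last exon at the same base in all 4 lists and ran for 1494 and 1577 bases in WT and 1295 and 1493 in KO. The scores of that region were 1176 and 3100 in WT and 2529 and 3100 in KO. A further coding peak in exon 9 of Ripk1 was listed in WT-1 and KO-1 only, with scores of 347 and 398.5.

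The TNF receptors differed from each other. Tnfrsf1b, which encodes TNFR2, had 1 peak in every list, with scores of 905 in WT-1 and 3100 in the other 3 lists. The peak covered 314 coding bases and the whole 3′ UTR of 2324 bases in each list. It was 3015 and 3012 bases long in WT and 3733 in either KO list, and since the last exon accounts for 2638 of these in each list, the added KO bases lie outside the annotated exons of the gene. Tnfrsf1a, which encodes the death domain receptor TNFR1, had a single peak in its 5′ UTR in WT-2, at percentile 17.4, and none in the other lists.

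Of the 4 Toll-like receptor adaptors, Myd88 had no listed peak and the other 3 had peaks in every list. Ticam1, which encodes TRIF, had 2 and 2 peaks in WT and 1 and 1 in KO, and was the only member with more peaks in both WT lists than in both KO lists (two-sided exact permutation test, p = 0.33). Each KO list held 1 peak over the stop codon, as did WT-1, while the highest peak of WT-2 began just after the stop codon. The second peak of each WT list lay upstream of both KO peaks with its midpoint in the coding sequence, at different places in WT-1 and WT-2, with percentiles of 10.1 and 15.8. In the upper 50% of each list by score this difference was 0. The highest peaks of Ticam1 ranked at percentiles 10.1 and 70.1 in WT and 51.0 and 28.8 in KO, the lowest mean (40.0) of the genes with a peak in every list. Tirap, which encodes the adaptor that brings MyD88 to the membrane, had 1 and 2 peaks in WT and 1 and 1 in KO, nearly all in its 3′ UTR, with top percentiles of 51.0, 63.4, 59.4 and 67.6. Ticam2, which encodes the TRIF-related adaptor TRAM, had 1, 1, 1 and 2 peaks, and the top percentile ran from 12.3 in WT-1 to 99.1 in WT-2, with 70.7 in KO-1 and 71.4 in KO-2. The Ticam2 peak over the stop codon shares 838 exon bases with Tmed7 on the same strand in each list, so the gene these 4 peaks belong to is uncertain, while the second peak of KO-2, in the 5′ UTR, overlaps no other gene.

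In the IRAK family, Irak1 was the only kinase with a peak in every list, Irak3, the inhibitory member, had none, and Irak2 and Irak4 had them in some lists. Irak1 had 1 peak in each list at or beside the stop codon and in the short 3′ UTR, with scores of 1178 and 1349 in WT and 1042 and 226.6 in KO. Outside the longest coding transcript lay 566 of its 1097 bases in WT-1, 189 of 720 in KO-1 and 365 of 896 in KO-2. The percentile was lowest in KO-2, at 18.7, where the other 3 lists lay between 63.8 and 73.9. Irak2 had 1 peak in WT-2 and 1 in KO-1. Irak4, the kinase that acts first after MyD88, had 1 peak in every list but WT-2, not always at the same place: that of KO-2 covered the stop codon, at percentile 99.3, and those of WT-1 and KO-1 lay outside the longest coding transcript and overlapped exons of the opposite-strand gene Twf1 by 292 and 122 bases.

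All 6 TRAF genes had a listed peak in at least 1 list, and Traf1, Traf3 and Traf6 had one in all 4. Traf1, itself an NF-kB target, had 2 and 1 peaks in the WT lists and 2 and 1 in the KO lists, with top scores of 1410, 3100, 619.7 and 2337. Traf3, which restrains non-canonical signalling, had 1, 1, 1 and 2 peaks, with top scores of 256.8, 852.6, 955.4 and 1393. In percentiles Traf3 ranked at 28.7 and 56.2 in WT and at 61.8 and 64.3 in KO, and the gap between WT-2 and KO-1 was small beside the spread within WT. Traf6, the ubiquitin ligase downstream of the IRAK kinases, showed the largest difference in peak length among the genes with a peak in every list: 418 and 443 bases in WT against 1411 and 1409 in KO. The WT-1 peak lay wholly in the coding sequence and the WT-2 peak over the stop codon, they had no base in common, and each KO peak spanned both. Traf2 and Traf4 had 1 peak each, in WT-2. Traf5 had 1 peak in WT-1, WT-2 and KO-2, at 3 different places.

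TAB2, which binds lysine-63-linked ubiquitin chains and brings the kinase TAK1 to them, was beside CYLD the most highly ranked member, while the related Tab1 and Tab3 had 1 peak each in KO-2 and, for Tab3, another in WT-2. Tab2 had 2 and 2 peaks in WT and 2 and 1 in KO. The region over its stop codon and 3′ UTR was listed in every list, with scores of 3100 and 3100 in WT and 2970 and 3100 in KO. The other region lies in coding exon 3, an exon of 1501 bases, which the peak filled in WT-1 and KO-1 and covered for 1328 bases in WT-2. It was not listed in KO-2, although the scores in the other 3 lists were 1323, 3100 and 3100. It is the only region of the 37 genes that was present in both WT lists and missing from a KO list.

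The kinases that carry the pathway to the inhibitors form, with NEMO and TANK, a group of 6 genes. Of these, 3 had a peak in any list, where 32.1% of all protein-coding genes did. Chuk (IKK alpha), Ikbke and Tbk1 had none. Ikbkb (IKK beta) had 3 and 1 peaks in WT and 1 and 0 in KO, all outside its longest coding transcript, and 1 of its regions was shared by WT-1 and KO-1. Ikbkg, which encodes the regulatory subunit NEMO, had 1 peak in WT-2, at percentile 7.60. The scaffold protein TANK had 1 peak in every list at the same place, a coding exon of 551 bases that was covered in full in all 4 lists. Its scores were 1950 and 3100 in WT and 1215 and 1168 in KO, and the percentiles were 83.6, 99.1, 67.4 and 60.1. Both WT percentiles of Tank lie above both KO percentiles, as those of Irak1 and Traf1 do. The order is the opposite for Traf3, Traf6 and Nfkbie, and for Tnfrsf1b with scores tied at 3100. No share of all genes that separate in either way is given. The WT-2 score of Tank is tied with many others at 3100, so the distance of its rank from that of WT-1 cannot be read.

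Of the 5 subunits of NF-kB itself, Nfkb1, Nfkb2 and Rela had no listed peak. Rel, which encodes c-Rel, had 1 peak in WT-2, KO-1 and KO-2 at the end of its coding sequence, with scores of 2241, 866.4 and 260.1. Relb had 1 peak over its stop codon, in WT-1, at percentile 14.9.

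Among the inhibitors, Nfkbib was the only one of the 37 genes listed in both lists of a single genotype and in neither of the other. Nfkbib, which encodes IkB beta, had 0 peaks in WT-1 and WT-2 and 1 peak in KO-1 and KO-2 (two-sided exact permutation test, p = 0.33). The peak had the same 334 bases in both KO lists, which are the whole of coding exon 3 (chr7:28761602-28761935, GRCm38, minus strand). Its scores of 267.1 and 216.1 were low, at percentiles 27.2 and 17.6, and the peak was not in the upper 50% of either list by score. It is 1 of 29 members with any peak (3.45%), beside a background of 4.88% of the 7055 genes with any peak that were listed in both KO lists and neither WT list. No member was listed in both WT lists and neither KO list, where the background was 3.84%. Nfkbie, which encodes IkB epsilon, had 1 peak over the stop codon and the whole 3′ UTR in every list and another in exon 1 in WT-1, with top scores of 2009 and 2303 in WT and 3100 and 3133 in KO. In percentiles Nfkbie ranked at 84.3 and 80.7 in WT and at 99.4 in either KO list. The KO-1 score is tied with many others at 3100, so the distance of its rank from that of WT-1 cannot be read. Nfkbia, the classical inhibitor IkB alpha, had 1 peak of 561 bases in every list but WT-2, with scores of 875.6, 67.8 and 529.2. Nfkbiz, which encodes the nuclear protein IkB zeta, had 2 peaks, both in WT-2.

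**Figure D2:**
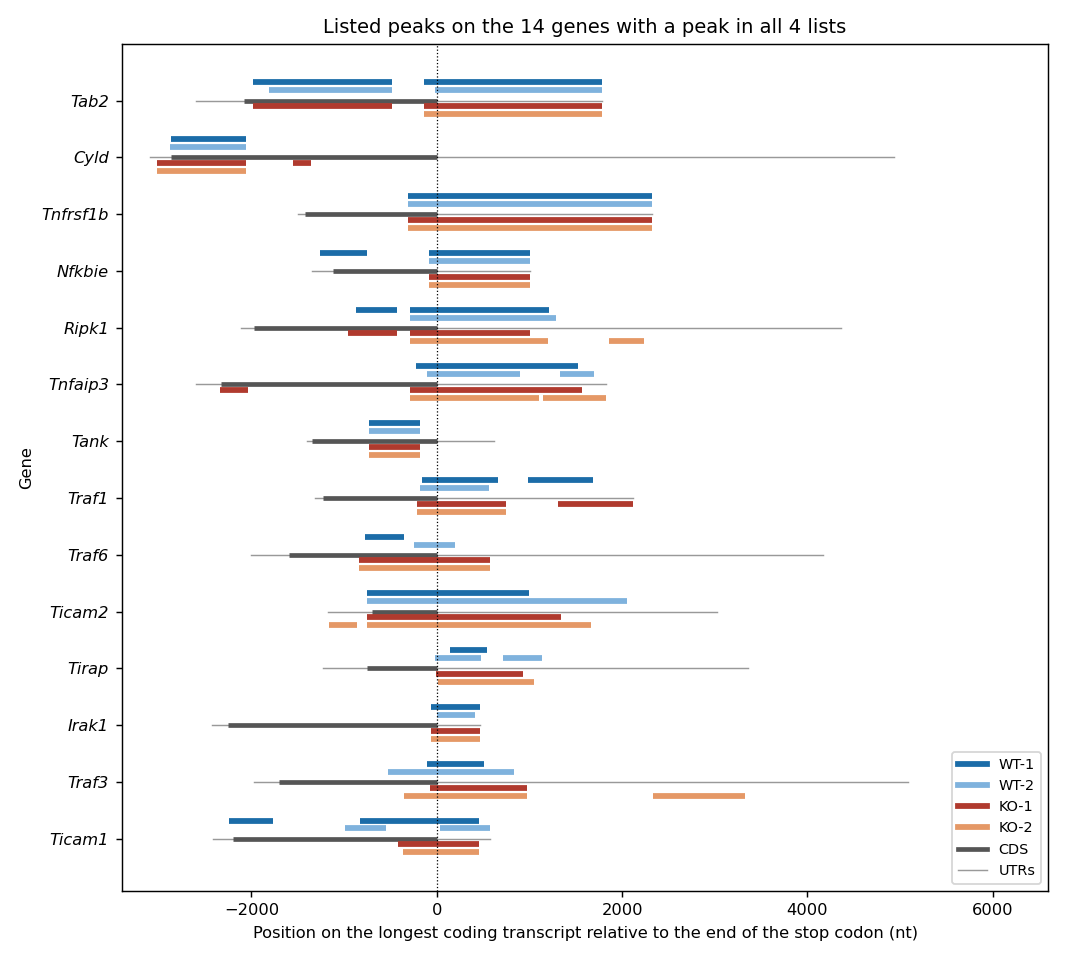
Listed peaks of the 14 genes with a peak in every list, drawn along the longest coding transcript of each gene (x axis, distance in nt from the end of the stop codon, dotted line). Coloured bars are peaks of the 4 lists, the thick grey line is the CDS and the thin line the UTRs. In most genes the 4 bars cross the stop codon or lie beside it, while those of Cyld present in every list lie at the start of the CDS and those of Tank within it. Of the additional Cyld peaks, that of KO-1 lies further along the CDS, and that of KO-2 lies outside this transcript and is not drawn.

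The peaks that recurred lay mostly around stop codons. The 110 peaks formed 49 regions when overlapping peaks on the same strand were joined, and 15 of these regions (30.6%) were present in all 4 lists, where the background was 18.1% of 11965 regions. The 15 regions lie on the 14 genes named above, with 2 on Cyld. All of them except the 2 on Cyld and that on Tank covered a stop codon. No such share is given for the recurrent regions of all genes. Another 25 regions were present in 1 list each, 6 and 9 in WT and 2 and 8 in KO. No region was listed in both WT lists and neither KO list (background 3.33%), and 1, that of Nfkbib, was listed in both KO lists and neither WT list (background 6.1%). Of the 110 peaks, 53 covered a stop codon: 12 of 27 (44.4%) and 13 of 30 (43.3%) in WT, and 14 of 26 (53.8%) and 14 of 27 (51.9%) in KO. Among all assigned peaks this share was 32.0% and 36.1% in WT and 31.6% and 34.7% in KO. The mean was 43.9% ± 0.786 in WT and 52.8% ± 1.41 in KO (SD, n = 2 each), and the genotypes did not overlap. The members were chosen with earlier results of these data known, so no p is given for this share. This comparison was chosen after its values were seen, and the same share over all peaks did overlap. In the upper 50% of each list by score the members' share was 17.6 percentage points higher in KO, where it was 8.96 over all of their peaks. No share over the peaks of all genes is given for that upper 50%.

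The CDS held the midpoint of 42.9% and 37.9% of the placed peaks in WT and of 41.7% and 24% in KO, each below the share of all peaks in that list (49.4%, 47.4%, 54.9% and 52.3%). The means were 40.4% ± 3.48 in WT and 32.8% ± 12.5 in KO (SD, n = 2 each), which did not differ beyond the spread between the KO lists. KO-2 set this difference: without it the difference of -7.56 percentage points was 1.27.

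**Figure D3:**
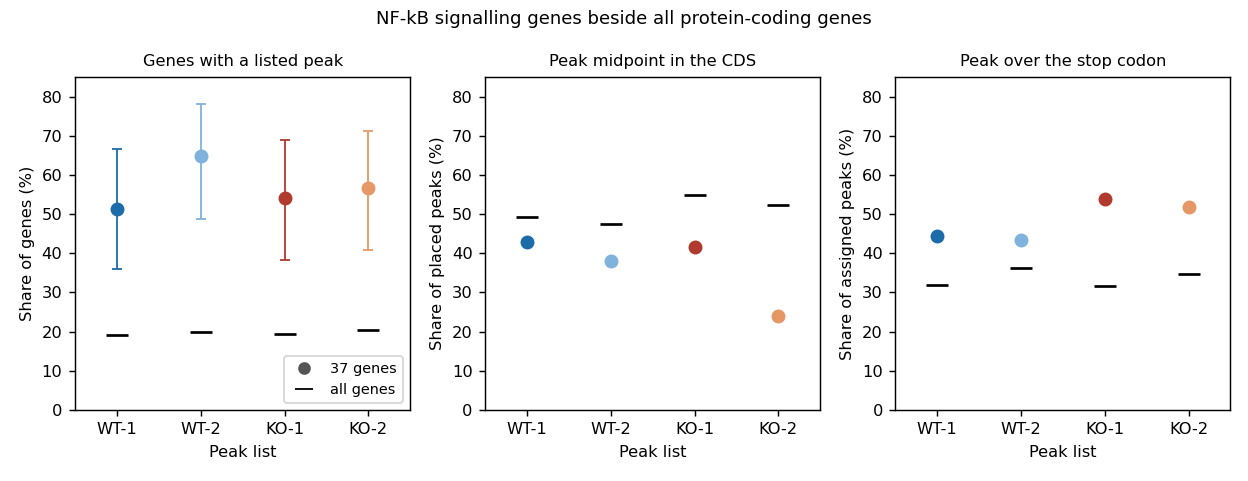
Shares by list for the 37 genes (coloured points) and all protein-coding genes (black dashes): genes with a listed peak (left, with Wilson 95% intervals), placed peaks with the midpoint in the CDS (middle) and assigned peaks over a stop codon (right). In every list the 37 genes lie above all genes on the left and right and below them in the middle, and the low CDS share of 24% is that of KO-2.

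The 30-base windows below show the sequence around the GGAC nearest the centre of the shared stretch for the 5 genes that ranked highest together with Cyld, each in the 3′ UTR of the last exon, 5′ to 3′ on the strand of the gene, with GGAC in capitals. They lie at chr10:7906544-7906573 (Tab2), chr4:145214639-145214668 (Tnfrsf1b), chr17:45562219-45562248 (Nfkbie), chr13:34033192-34033221 (Ripk1) and chr10:19002400-19002429 (Tnfaip3), in GRCm38, on the minus strand for Tab2, Tnfrsf1b and Tnfaip3 and the plus strand for the others.
Tab2: cactgcagccatcGGACggtcgaggtcacg
Tnfrsf1b: gaatcaagatactGGACacttggggccgac
Nfkbie: gatctggaaggaaGGACttcccaagtggcc
Ripk1: cttcccgcttcatGGACtgtgagtcagaaa
Tnfaip3: gaaatgcgtgctaGGACtggcagcagttcc

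GGAC was searched in the exonic sequence of each region, on the strand of the gene. All 15 regions present in every list held it (100%, Wilson 95% interval 79.6 to 100), and so did 96.6% of the 2167 such regions of all genes. The longer form GGACT, which contains GGAC, was found in 13 of the 15 (86.7%, 62.1 to 96.3) and in 73.1% of all such regions. Over the members' 49 regions in any list the share with GGAC was 85.7%, and it was also 85.7% for the 11965 regions of all genes. The median was 4.33 matches per kb in the members' regions present in every list, against 4.28 in such regions of all genes, and 3.32 in their regions in any list, against 4 in all regions. Within the central 200 bases of the 15 regions GGAC was found in 66.7%.

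The 8 genes with no listed peak also hold the motif. Myd88, Irak3, Chuk, Ikbke, Tbk1, Nfkb1, Nfkb2 and Rela held between 11 and 22 GGAC in their longest coding transcripts (median 17, or 5.29 per kb), against a median of 15 (3.41 per kb) in the 14 genes with a peak in every list. Over all protein-coding genes the order of the counts was the opposite, with a median of 8 GGAC for genes with no peak and 17 for those with a peak in every list, or 3.95 and 3.92 per kb. No peak of either strand lay within the bounds of these 8 genes, introns included. They differed in the architecture of the transcript, since the median last exon was 913.5 bases for the 8 genes, 1248 for the 15 with a peak in 1 to 3 lists and 2768.5 for the 14 with a peak in every list. The median 3′ UTR was 711, 1179 and 2223.5 bases in the same order. The ranges overlap, from 531 to 5660 bases of last exon in the 14 genes and from 255 to 1544 in the 8. All protein-coding genes showed the same order, with a median last exon of 923 bases for genes with no peak, 1489 for those with a peak in 1 to 3 lists and 2208 for those with a peak in every list. These are descriptions of which genes have a listed peak and no test was made, and the expression of the genes, which the lists do not give, was not compared.

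**Figure D4:**
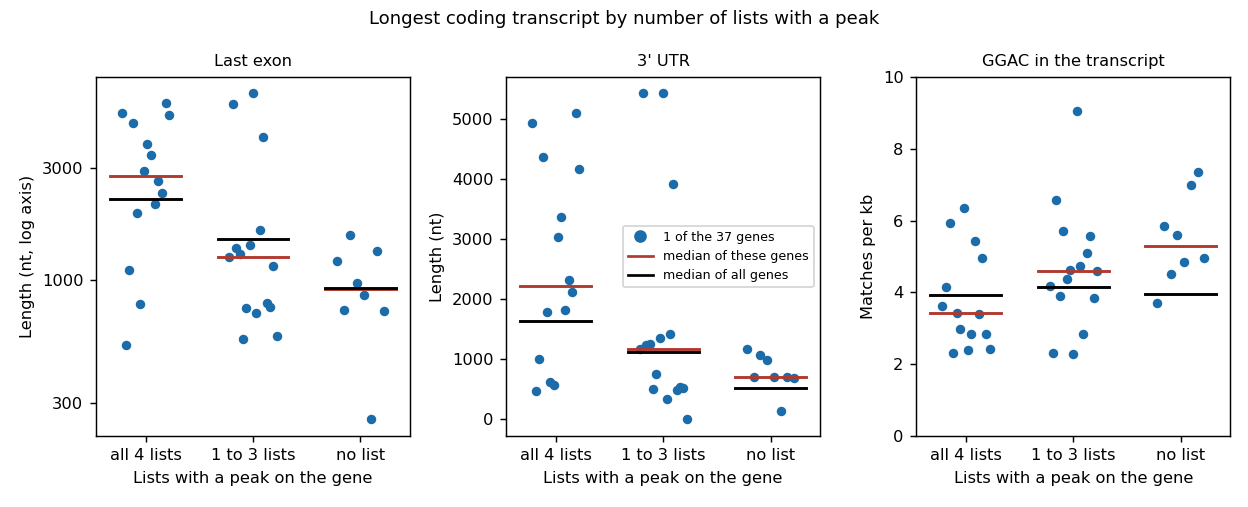
Last exon length (log axis), 3′ UTR length and GGAC per kb of the longest coding transcript, for the 37 genes by the number of lists with a peak. Each point is a gene, red lines are the medians of these genes and black lines those of all protein-coding genes. The medians of last exon and 3′ UTR are shorter from left to right, and the 8 genes with no peak have the highest median GGAC per kb, at 5.29.

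Where a region was present in all 4 lists, its listed length could be compared. In 7 of the 15 regions (46.7%) both KO lists covered more bases than both WT lists, where this was so for 30.8% of the 2167 regions of all genes. These 7 were on Traf6, Tnfrsf1b, Tnfaip3, Tirap, Traf1, Cyld (exon 2) and Tab2, with differences of the means from 979.5 bases for Traf6 to 69 for Tab2. The WT lists covered more in 2 regions (13.3%, background 9.23%), those of Ticam1 and Ripk1, and in Ripk1 the gap between the nearest lists, WT-1 and KO-2, was a single base. In Tab2 too the gap was small, with 1924 and 1798 bases in WT and 1930 in either KO list. For Tnfrsf1b the added bases lie outside the annotated exons. The remaining 6 overlapped between the genotypes. The median listed length of the 15 regions was 1097 and 986 bases in WT and 1053 and 1155 in KO, which overlap. Over all regions in every list it was 767 and 721 bases in WT and 808 and 900 in KO. The length of a listed peak can depend on the depth of a library, which is unknown here, and its part was not tested.

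**Figure D5:**
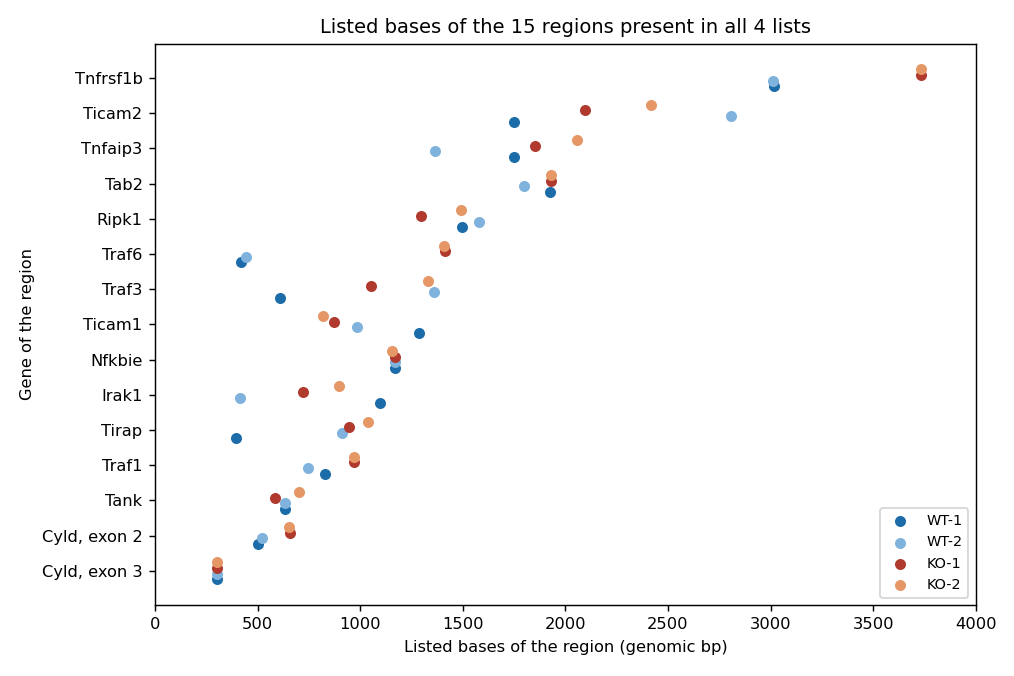
Listed bases (x axis, genomic bp) of the 15 regions present in all 4 lists, 1 row per region and 1 point per list, ordered by length. The KO points of Traf6 lie at 1411 and 1409, far to the right of the WT points at 418 and 443, while all 4 points of Cyld exon 3 lie at 303.

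The number of peaks on a gene was also set against all genes. Both KO lists held more peaks than both WT lists on 2 of the 29 members with any peak, Cyld and Nfkbib (6.9%, background 8.07%), and both WT lists held more on 1, Ticam1 (3.45%, background 5.47%). Neither share exceeds that of all genes.

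Other genes of the pathway also had listed peaks in most cases. Of 49 further pathway genes, 38 had a listed peak in any list (77.6%) and 15 in every list: Map3k7, Map3k8, Otulin, Birc2, Birc3, Xiap, Tnip3, Nfkbil1, Peli1, Card9, Malt1, Nod1, Nod2, Il1r1 and Tnfrsf11a. Map3k7 encodes TAK1, the kinase that TAB2 serves, and had 1 and 2 peaks in the WT lists and 1 in either KO list. Birc3, which encodes the ubiquitin ligase cIAP2, had 3, 2, 3 and 2 peaks, and Nod2, a receptor for bacterial cell wall fragments, had 1, 3, 4 and 5. On Nod2, and on Il1r1 with 1, 1, 2 and 2, both KO lists held more peaks than both WT lists (background 8.07%). The 3 genes of the linear ubiquitin ligase, Rnf31, Rbck1 and Sharpin, had none. Ube2v1, a cofactor of the enzyme that builds lysine-63 chains, had 1 peak in both WT lists and 0 in both KO lists, and Fadd, a death domain adaptor, had 0 in WT and 1 in both KO lists. Each was the only such gene of the 38. The background was 3.84% of all genes with any peak listed in both WT lists and neither KO list, and 4.88% for the reverse. Summed over the 49 genes the lists held 32, 38, 38 and 31 peaks.

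Of 25 NF-kB target genes, 9 had a peak in any list (36%), near the 32.1% of all protein-coding genes. Icam1, an adhesion molecule, was the only one with a peak in every list, at 2 and 3 in WT and 1 and 1 in KO. Both WT lists held more peaks on Icam1 than both KO lists, as was so for 5.47% of all genes with any peak. Ptgs2, the inducible cyclooxygenase, had 0 peaks in WT and 1 in both KO lists (background 4.88%). No target was listed in both WT lists and neither KO list (background 3.84%). Tnf had 1 peak in every list but WT-2. The 16 targets with no listed peak include Il6, Il1b, Nos2 and Il12b, and the cells were unstimulated, so expression and methylation of these genes cannot be told apart here.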

How the data were processed

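MeRIP-Seq of total RNA from BMDMs of 2 WT and 2 KO mice gave an IP and an input library per mouse. Per the submitters' processing notes, cutadapt 1.9.3, HISAT2 2.0.4 and mm10 were used. The peak caller and its settings are not given in the sources used here. The authors deposited 1 peak list per mouse, with a score for each peak that many peaks share at 3100, and all peaks were at least 300 bp wide. Starts were read as counted from 0, since 6770 of the 25484 starts then fall on the first base of an exon, against 60 as written.

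Peaks were assigned to the protein-coding gene of GENCODE M21 (GRCm38) with the largest exon overlap on the same strand, by at least 1 bp. Peaks of the 4 lists that overlap by 1 bp were joined into regions. Positions were placed on the longest coding transcript. A percentile ranks a score within its list. The two-sided exact permutation test of peak numbers ran over the 6 labellings of the lists, and shares have Wilson 95% intervals. Sequences were read from the RefSeq GRCm38 genome.

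The genes named are all 37 members, in groups by role, with values in every list for those present in all 4 lists or in the lists of a single genotype, and sequences for at most 6 members by mean percentile, none for Ticam2. Further pathway genes, targets and cell markers are named where they follow the same patterns. The members and lists were chosen with earlier results of these data known. The comparison of region lengths and of numbers of peaks with all genes was added after values were seen. The alternatives took the upper 50% of each list by score, equally many top peaks from every list, assignment by the midpoint, a replicate block, a reciprocal overlap of 50%, other windows and motifs, presence in at least 1 list, each list left out in turn and, chosen after seeing the data, exons of coding transcripts only. The functions were tested on simulated peaks. Python 3.11.15, numpy 2.4.6, scipy 1.17.1 and matplotlib 3.10.9 were used.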

Additional observations from a re-analysis of the deposited data

How the results depend on the processing

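The 14 genes with a peak in every list, the gain of Nfkbib, the absence of members listed only in WT, the numbers of members and of peaks, the CDS share and GGAC kept their values or moved by less than the spread between lists with equally many top peaks from every list, with assignment by the midpoint and with exons of coding transcripts only. In the upper 50% of each list by score, 9 genes had a peak in every list, all of them among the 14. There, 1 member (Ikbkb) was listed only in both WT lists (5%, all genes 3.14%), and 0 members and 0 regions only in both KO lists (all genes 4.17%, all regions 5.01%). Of 10 regions in every list, 6 were longer in KO (60%, all regions 28.3%) and 1 in WT (10%, all regions 8.43%). The members' stop codon share was 17.6 percentage points higher in KO, where it was 8.96 over all of their peaks and 7.50 with exons of coding transcripts only. No such share over all genes is given for these alternatives. Fewer peaks enter by construction. With a reciprocal overlap of 50%, 3 regions were listed only in both KO lists (5.26%, all regions 6.65%), 5 of 14 were longer in KO (35.7%, all regions 28.8%) and 1 in WT (7.14%, all regions 10%). With presence in at least 1 list of a genotype and none of the other, 6 members (20.7% of those with a peak) were listed only in WT and 2 (6.9%) only in KO, where the shares over all genes were 22.5% and 18.4%. GGAC was found in 66.7% of regions within the central 200 bp.

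Leaving out each list in turn gave from 1 to 5 members in every remaining WT list and no remaining KO list (only in WT). The reverse (only in KO) held for 1 to 3 members. Nfkbib was among the latter each time, which its presence in both KO lists and neither WT list fixes in advance. The highest number, 5, came without WT replicate 1, when WT-2 alone stood for WT. Over all genes the shares ranged from 7.18% to 15.5% only in WT and from 10.9% to 13.4% only in KO, against 3.45% to 17.9% and 3.57% to 10.7% of the members. Regions listed only in WT ranged from 0 to 10 and only in KO from 2 to 9 (0% to 22.7% and 4.55% to 19.1%, where all regions gave 5.84% to 19.6% and 11.5% to 20.8%). Regions longer in KO ranged from 7 to 9 and in WT from 3 to 4 (43.8% to 56.2% and 18.8% to 25%, where all regions gave 33.7% to 53% and 12.7% to 23%). The cause was not tested beyond the lower number of lists that a call then needs.

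The study used Cre-negative littermates as controls, and the animal numbers of same-numbered lists lie close together, but the labels do not say which mice shared a litter. Same-numbered lists did not deviate together (correlation of the difference between the lists of a genotype -0.00301 over 7055 genes), so whether the numbers pair mice is not known, and the comparisons were made without pairing. With a replicate block that asks for presence in one list and absence from its same-numbered partner in at least 1 pair, and for no pair with the opposite order, 8 members (27.6%) and 16 regions (32.7%) were called toward WT and 5 (17.2%) and 13 (26.5%) toward KO. The shares over all genes and regions were 28.5% and 33.9% toward WT and 29.2% and 37.4% toward KO. A member called in this way may have a peak in the other genotype. The smallest p within pairs is 0.5. The depth of the libraries is unknown, so a peak that is not listed may be below detection.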
